A study of Mus musculus with 2 samples.

Results

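The matrix metalloproteinases (MMPs) Mmp2, Mmp9, Mmp3, Mmp10, Mmp11, Mmp13 and Mmp14 and their tissue inhibitors (TIMPs) Timp1, Timp2 and Timp3 were followed across the cell types of mouse skin tumours. These 10 genes were found by symbol among the 32285 genes of the count matrices, and all 10 were measured in both libraries. Squamous tumours of the back skin were dissociated whole, and single cells were captured in droplets and sequenced from transcript 3' ends, which counts unique molecular identifiers (UMIs), 1 per captured transcript. The Eed iKO-D library came from K14CrERT2;Eed flox/flox mice given hydroxyl-tamoxifen on the back skin from postnatal day 50 for 4 days and then the carcinogen DMBA weekly for up to 20 weeks. For Ctrl-D, Eed flox/flox mice without the Cre received ethanol in place of hydroxyl-tamoxifen, and DMBA in the same way. Mice of both groups were 5 months old and carried the floxed Eed alleles. Eed encodes a subunit of Polycomb repressive complex 2, which places the repressive histone mark H3K27me3. The Cre is driven by the keratin 14 promoter, so recombination is directed at basal epithelial cells of the skin and not at stromal or immune cells. Genotype and hydroxyl-tamoxifen differed together and cannot be told apart, and the number of animals and tumours behind each library was not given in the sources used here. A single library stood for each group, which leaves the differences without replicates, and p-values are not given. Intervals are 95% intervals and cover counting error only.

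MMPs are zinc-dependent enzymes that cut extracellular matrix proteins, and most are secreted as inactive proenzymes. Mmp2 and Mmp9 are gelatinases, Mmp3 and Mmp10 are stromelysins, Mmp13 is the main interstitial collagenase of the mouse, Mmp11 is cut to its active form inside the cell by furin-type convertases, and Mmp14 is a membrane-bound enzyme that activates pro-Mmp2 and pro-Mmp13. TIMPs bind MMPs and block them; Timp2 also takes part in the activation of pro-Mmp2 by Mmp14, and Timp3 is bound to the matrix. In skin wounds and skin tumours, both keratinocytes at the invasive edge and stromal cells are known sources of these enzymes.

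The Eed iKO-D library held 22259 barcodes and 289511009 UMIs, and the Ctrl-D library 8039 barcodes and 120500892 UMIs. Filtering left 21484 Eed iKO-D cells with a median of 3191 UMIs and 7393 Ctrl-D cells with a median of 13037 UMIs, and 40 of the kept barcodes occurred in both libraries. Clusters were named from marker genes that included no Mmp or Timp gene. The clusters left unnamed held 12269 cells, or 57.1%, of Eed iKO-D and 14 cells, or 0.189%, of Ctrl-D. They had a median of 2350 UMIs in Eed iKO-D and were left out of the comparisons. The largest, cluster 0 with 7561 Eed iKO-D cells, scored highest for epithelial markers. It was left unnamed because 39.6% of its UMIs came from Gm42418. The doublet caller marked 0 cells in Eed iKO-D and so did not work there, and it removed 129 cells from Ctrl-D. The labels call the cells epidermal cancer cells. Among named cells 35.9% of Eed iKO-D and 73.5% of Ctrl-D were epithelial-like, shares that leave out the unnamed cells. Cells with at least 1000 UMIs were also gated one by one by their own markers, with the unnamed clusters included. This gate called 15215 Eed iKO-D cells epithelial-like and 3840 fibroblast-like, and 5809 and 322 cells in Ctrl-D. Eed itself was at 47.1 CPM (UMIs of a gene scaled to 1000000 UMIs of the class) in Eed iKO-D and 52.9 CPM in Ctrl-D epithelial-like cells. The labels do not say which exons are floxed, and 3' counts outside a deleted part check nothing. RNA of other cells is present in droplets. In Eed iKO-D, the epithelial genes Krt14, Krt5, Krt6a and Perp stood in fibroblast-like cells at a median of 6.37% of their epithelial-like level, against 1.71% in Ctrl-D. The fibroblast genes Col1a1, Col1a2, Col3a1, Dcn and Lum stood in epithelial-like cells at 0.644% of their fibroblast-like level in Eed iKO-D and 0.0353% in Ctrl-D.

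Mmp13, Mmp3 and Mmp10 lie in this order in a cluster of 10 Mmp genes that spans 427 kb of mouse chromosome 9 (GRCm38). All 3 are on the plus strand, at 7272514 to 7283331, 7445822 to 7455975 and 7502352 to 7510240. Their proximal promoters are shown because these 3 members were all higher in Eed iKO-D epithelial-like and fibroblast-like cells. The sequences run 5′ to 3′ on the plus strand and are the 120 bases before the RefSeq start of each gene in GRCm38.p6, chr9:7272394-7272513 for Mmp13, chr9:7445702-7445821 for Mmp3 and chr9:7502222-7502341 for Mmp10. Capitals mark the letters TGANTCA, the core that AP-1 factors (Fos and Jun proteins) are known to bind.
Mmp13: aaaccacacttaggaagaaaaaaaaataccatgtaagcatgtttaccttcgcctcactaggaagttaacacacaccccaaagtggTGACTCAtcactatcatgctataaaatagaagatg
Mmp3: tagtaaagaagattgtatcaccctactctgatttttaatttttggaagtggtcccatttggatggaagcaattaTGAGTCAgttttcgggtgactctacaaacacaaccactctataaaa
Mmp10: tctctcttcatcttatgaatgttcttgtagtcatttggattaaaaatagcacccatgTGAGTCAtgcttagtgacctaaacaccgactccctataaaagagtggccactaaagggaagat
The match begins at position -35 in Mmp13, -46 in Mmp3 and -63 in Mmp10, counted from the base before the start as -1, and each of these promoters also holds the TATA letters TATAAA downstream of it. Over the 250 bases before the start, searched on both strands, TGANTCA occurred in these 3 members and in none of Mmp11, Mmp14, Timp1, Timp2 and Timp3; Mmp2 and Mmp9 were not in the promoter table. Among all 32851 promoter windows of that length, 6.75% held TGANTCA and 12.4% held TATAAA. A match of letters is a description and does not show that a factor is bound. Mmp11 and Mmp14, which had no match, were also at least 1.5 times higher in Eed iKO-D epithelial-like cells. The promoters of Mmp14, the membrane-bound enzyme, and Timp1 are shown as examples without the match. They are at chr14:54431478-54431597 and chrX:20870046-20870165, both on the plus strand.
Mmp14: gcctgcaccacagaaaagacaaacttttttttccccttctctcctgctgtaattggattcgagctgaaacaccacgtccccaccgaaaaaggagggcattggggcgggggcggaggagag
Timp1: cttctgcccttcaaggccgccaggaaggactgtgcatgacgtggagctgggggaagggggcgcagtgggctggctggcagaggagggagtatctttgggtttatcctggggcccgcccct

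Fibroblast-like cells were the source with the highest level for most members. Averaged over both libraries, 8 of the 10 members were highest in fibroblast-like cells among the 8 classes that reached 20 cells both in Eed iKO-D and in Ctrl-D. The exceptions were Mmp9, which was highest in neutrophil-like cells in both libraries, and Mmp13, which was highest in fibroblast-like cells of Eed iKO-D but in macrophage or monocyte-like cells of Ctrl-D. That Ctrl-D value of Mmp13 came mostly from a few cells. Mmp10 was close between fibroblast-like and epithelial-like cells, at 164 and 141 CPM in Eed iKO-D and 18.8 and 16.3 CPM in Ctrl-D. The Ctrl-D fibroblast-like value of Mmp10 rests on 43 UMIs. Timp3 was highest in blood endothelial-like cells of Eed iKO-D, at 308 CPM, a class with 19 cells in Ctrl-D. Mmp2, the gelatinase of mesenchymal cells, was at 904 CPM in Eed iKO-D and 850 CPM in Ctrl-D, and Mmp14 at 844 and 824 CPM. UMIs are counted at transcript 3' ends, so these levels are not scaled by transcript length.

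**Figure D1:**
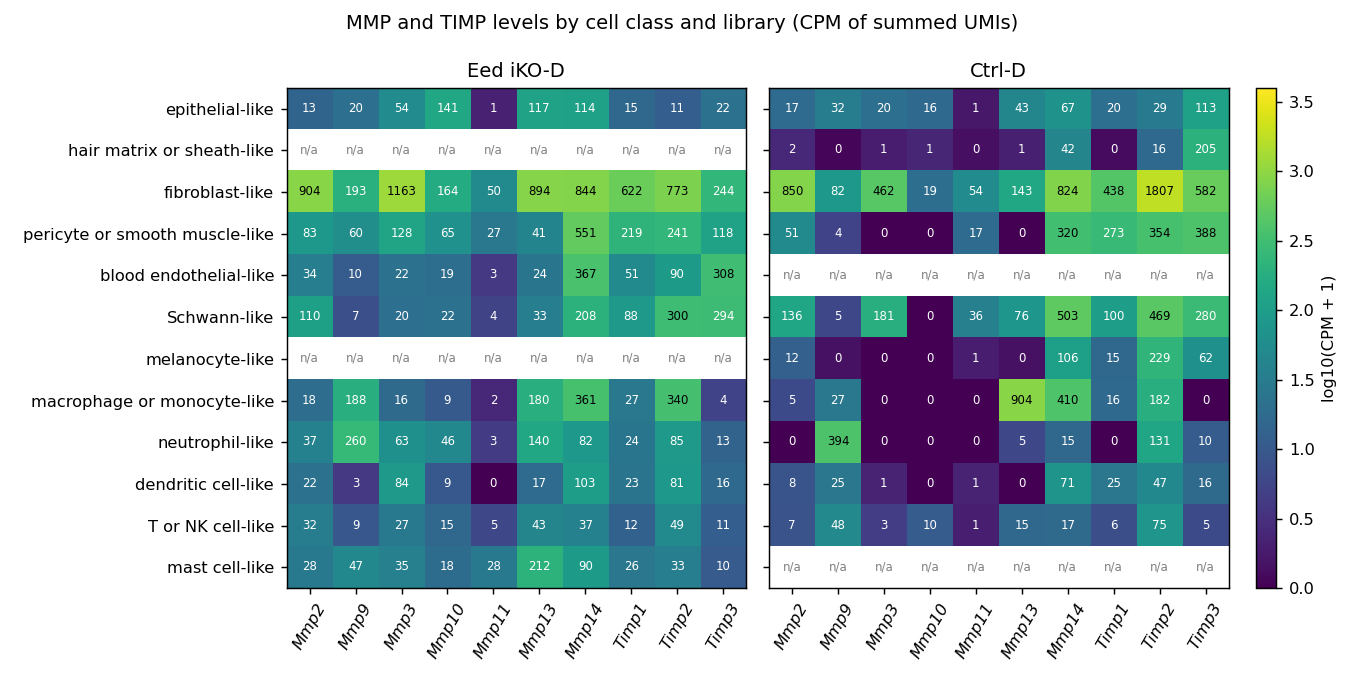
Level of each member (columns) in each cell class (rows) in Eed iKO-D (left) and Ctrl-D (right), as CPM of UMIs summed over the class; colour is log10(CPM + 1), and n/a marks classes with fewer than 20 cells in that library. The fibroblast-like row holds the highest values for most members in both libraries, Mmp9 peaks in the neutrophil-like row, and Mmp13 in Ctrl-D peaks at 904 CPM in the macrophage or monocyte-like row.

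The class that supplied most UMIs was not always the class with the highest level, because the libraries differed in composition. Fibroblast-like cells made 27.0% of the UMIs of all named cells in Eed iKO-D and 1.97% in Ctrl-D. They supplied 89.1% of the Mmp3 UMIs of named cells in Eed iKO-D and 33.4% in Ctrl-D, and 74.2% of the Mmp13 UMIs in Eed iKO-D and 6.44% in Ctrl-D. For Mmp9 the shares were 62.2% in Eed iKO-D and 5.26% in Ctrl-D. Mmp10 was the member drawn mainly from epithelial-like cells in both libraries, with 62.4% of its UMIs in Eed iKO-D and 95.6% in Ctrl-D. Epithelial-like cells made 57.2% of the UMIs of all named cells in Eed iKO-D and 85.8% in Ctrl-D, so the Mmp10 shares were not far above these. The TIMPs shifted in the same way, with 71.2% of Timp3 UMIs in fibroblast-like cells of Eed iKO-D and 9.12% in those of Ctrl-D. How many fibroblasts a tumour held and how many survived dissociation cannot be told apart in these shares.

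In fibroblast-like cells, 4 MMPs were at least 1.5 times higher in Eed iKO-D and 2 TIMPs were at least 1.5 times lower. The 4 were the stromelysins Mmp10 and Mmp3, the collagenase Mmp13 and the gelatinase Mmp9. The 2 were Timp2 and Timp3. Mmp2, Mmp11, Mmp14 and Timp1 lay within 1.5-fold. Over the 17204 genes with at least 20 UMIs, 28.3% were higher and 22.8% lower by the same rule, and the median log2 ratio was 0.07 over all genes and 0.30 over the 10 members. The class held 2426 cells in Eed iKO-D and 246 in Ctrl-D.

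Mmp10 was at 164 CPM in Eed iKO-D fibroblast-like cells and 18.8 CPM in those of Ctrl-D, 8.70-fold higher (6.45 to 12.0). The Ctrl-D value rests on 43 UMIs in 5 cells, of which 1 cell held 33. With no doublets removed the Ctrl-D level was 72.7 CPM, because 1 further cell with 139 Mmp10 UMIs was then in the class, and the ratio was 2.26. With at least 1000 genes required per cell it was 2.04. The ratio of Mmp10 therefore depended on 1 Ctrl-D cell. With every cell weighted equally it was 17.1, and it stayed above 1.5 in each alternative run.

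Mmp13 was at 894 CPM in Eed iKO-D and 143 CPM in Ctrl-D fibroblast-like cells, 6.26-fold higher (5.61 to 7.00). It was detected in 42.0% of the Eed iKO-D cells and 6.10% of the Ctrl-D cells, and after thinning every cell to 1500 UMIs in 15.7% and 1.68%. The 5 highest cells held 10.4% of its UMIs in Eed iKO-D and 93.9% in Ctrl-D. Mmp3 was at 1163 CPM in Eed iKO-D and 462 CPM in Ctrl-D, 2.52-fold higher (2.37 to 2.68), and was found in 75.5% and 43.5% of cells. Mmp9 was at 193 CPM in Eed iKO-D and 81.7 CPM in Ctrl-D, 2.36-fold higher (2.04 to 2.74), with 90.9% of the Ctrl-D UMIs in 5 cells. In Ctrl-D, 3 of these 4 enzymes were thus read from a handful of cells, while Mmp3 was spread more widely.

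The inhibitors went the other way or stayed close. Timp2 was at 773 CPM in Eed iKO-D and 1807 CPM in Ctrl-D fibroblast-like cells, a ratio of 0.428 (0.414 to 0.441). Timp3 was at 244 CPM in Eed iKO-D and 582 CPM in Ctrl-D, a ratio of 0.420 (0.397 to 0.444). Timp1 was at 622 CPM in Eed iKO-D and 438 CPM in Ctrl-D, a ratio of 1.42 (1.33 to 1.51) and so within the 1.5-fold limit, which it passed at 1.55 with cells weighted equally or gated one by one. Mmp11, the stromelysin 3 of stromal cells, was at 50.2 CPM in Eed iKO-D and 53.8 CPM in Ctrl-D, where the interval of the ratio, 0.780 to 1.13, spans 1.

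**Figure D2:**
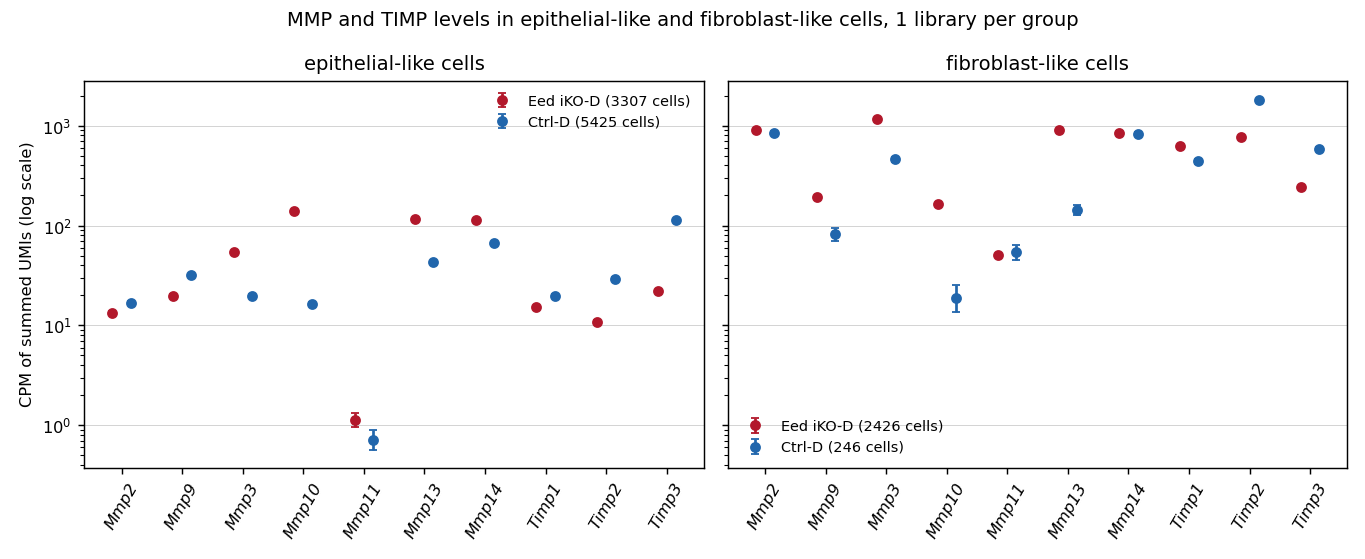
CPM of each member in epithelial-like cells (left) and fibroblast-like cells (right), on a log axis, with Eed iKO-D in red and Ctrl-D in blue; points are 1 library each and bars are exact Poisson 95% intervals of the UMI count, hidden by the point where narrow. In fibroblast-like cells Mmp9, Mmp3, Mmp10 and Mmp13 sit higher in Eed iKO-D while Timp2 and Timp3 sit lower, and in epithelial-like cells the widest gaps are those of Mmp10 (141 CPM in Eed iKO-D and 16.3 CPM in Ctrl-D) and Timp3 (21.9 CPM in Eed iKO-D and 113 CPM in Ctrl-D).

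The fibroblast-like class held 2 clusters that carried different members. Cluster 5, led by Col12a1 and Spon1, had 1389 cells in Eed iKO-D and 41 in Ctrl-D, and cluster 8, led by Clec3b and Pi16, had 1037 and 205. Mmp13, Mmp9 and Mmp10 were read almost wholly from cluster 5. In Eed iKO-D, Mmp13 was at 1380 CPM in cluster 5 and 30.6 CPM in cluster 8, and in Ctrl-D at 504 and 1.22 CPM. Mmp9 was at 298 and 5.72 CPM in clusters 5 and 8 of Eed iKO-D, and at 289 and 0.609 CPM in those of Ctrl-D. Mmp10 was at 250 and 9.02 CPM in clusters 5 and 8 of Eed iKO-D, and at 66.7 and 0 CPM in those of Ctrl-D. In Eed iKO-D, cluster 5 thus held 98.8% of the class's Mmp13 UMIs, 98.9% of its Mmp9 and 98.01% of its Mmp10, with 57.3% of its cells. In Ctrl-D, cluster 5 made 16.7% of the class, so the class ratios of these genes carry the change in the make-up of the class. Mmp9 in cluster 5 was at 298 CPM in Eed iKO-D and 289 CPM in Ctrl-D, where 5 cells held 91.4% of its UMIs, and with 41 Ctrl-D cells no ratio was formed there.

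Mmp3 and the TIMPs did not keep to 1 cluster. Mmp3 was at 1245 CPM in cluster 5 and 1017 CPM in cluster 8 of Eed iKO-D, and at 326 and 515 CPM in those of Ctrl-D. Timp2 was lower in cluster 5 than in cluster 8 in both libraries, at 483 and 1287 CPM in Eed iKO-D and 968 and 2136 CPM in Ctrl-D. Mmp11 was at 58.8 and 34.9 CPM in clusters 5 and 8 of Eed iKO-D, and 130 and 23.7 CPM in those of Ctrl-D. Timp3 was at 261 and 215 CPM in clusters 5 and 8 of Eed iKO-D, and 147 and 753 CPM in those of Ctrl-D.

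Within cluster 8, where both libraries had enough cells, 5 members were higher in Eed iKO-D and 2 were lower, against 24.2% and 24.6% of 14276 genes. Timp1 was at 537 CPM in Eed iKO-D and 231 CPM in Ctrl-D, and Mmp3 at 1017 and 515 CPM. Mmp13 was at 30.6 CPM in Eed iKO-D against 2 UMIs in Ctrl-D, and Mmp9 at 5.72 CPM against 1 UMI. Mmp10 was at 9.02 CPM against 0 UMIs, at least 4.94-fold higher against a floor of 3 UMIs over the cluster. Among Eed iKO-D cells of the cluster with at least 10000 UMIs, Krt14 was at 1417 CPM in cells with Mmp10 and 805 CPM in cells without. The neutrophil gene S100a8 was at 2017 CPM in cells with Mmp9 and 36.2 CPM in cells without. The part of epithelial and neutrophil RNA in these low values was not tested. Timp3 was at 215 CPM in Eed iKO-D and 753 CPM in Ctrl-D, a ratio with the interval 0.268 to 0.304, and Timp2 at 1287 and 2136 CPM. The lower Timp2 and Timp3 and the higher Mmp3 of Eed iKO-D fibroblast-like cells were therefore also present inside cluster 8. In cluster 5, where no ratio was formed, Timp2 was also lower and Mmp3 also higher, but Timp3 was higher in Eed iKO-D than in Ctrl-D.

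Epithelial-like cells of Eed iKO-D had 5 MMPs at least 1.5 times higher, and had Mmp9, Timp2 and Timp3 at least 1.5 times lower. The 5 were Mmp10, Mmp3, Mmp13, Mmp14 and Mmp11. Over 19585 genes, 38.4% were higher and 16.9% lower by the same rule, so 5 of 10 higher stands near that background. The median log2 ratio was 0.33 over all genes and 0.16 over the members. Scaling by the median of ratios lowers every log2 ratio by 0.33, and then 3 members (Mmp10, Mmp3 and Mmp13) were higher and 5 (Mmp2, Mmp9, Timp1, Timp2 and Timp3) were lower.

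Mmp10 was at 141 CPM in Eed iKO-D and 16.3 CPM in Ctrl-D epithelial-like cells, 8.66-fold higher (8.23 to 9.11), and was found in 31.8% and 3.43% of cells. Mmp3 was at 54.1 and 19.9 CPM in Eed iKO-D and Ctrl-D, 2.72-fold higher (2.59 to 2.86). Mmp13 was at 117 and 43.3 CPM in Eed iKO-D and Ctrl-D, 2.70-fold higher (2.61 to 2.79), and was found in 40.8% and 6.07% of cells. All 3 genes of the chromosome 9 cluster shown above were higher under both scalings. Mmp14 was at 114 CPM in Eed iKO-D and 66.8 CPM in Ctrl-D, 1.71-fold higher (1.66 to 1.76), and was within 1.5-fold after scaling by the median of ratios or with cells weighted equally. Mmp11 was near the detection limit, at 1.14 and 0.721 CPM in Eed iKO-D and Ctrl-D, from 158 and 72 UMIs, and its Eed iKO-D level is 2.26% of that in fibroblast-like cells of the same library. With cells weighted equally its log2 ratio was 0.08.

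Timp3 was at 21.9 CPM in Eed iKO-D and 113 CPM in Ctrl-D epithelial-like cells, a ratio of 0.195 (0.187 to 0.202). It was lower in each class-wide alternative run, with log2 ratios of -2.70 to -2.16. Timp2 was at 10.8 CPM in Eed iKO-D and 29.2 CPM in Ctrl-D, a ratio of 0.371 (0.349 to 0.395). Of the Ctrl-D Timp2 UMIs, 41.6% came from cluster 13, a Cck-led cluster of 626 cells present only in Ctrl-D, and without it the log2 ratio was -0.81 in place of -1.43. It was -0.05 with each cell gated by its own markers and 0.43 as the median within shared clusters, so the Timp2 call did not hold in these alternatives. Mmp9 was at 19.8 CPM in Eed iKO-D and 31.6 CPM in Ctrl-D, a ratio of 0.625 (0.594 to 0.658), but with every cell weighted equally its log2 ratio was 0.093.

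The epithelial-like class was made of different clusters in the 2 libraries, and the direction of several members depended on the cluster. In Eed iKO-D, 1642 of the 3307 cells lay in cluster 3, led by Hmga2 and the laminin gene Lama3, where Ctrl-D had 130 of 5425 cells. In Ctrl-D, most cells lay in cluster 2 (Chil4 and Stfa3, 1711 cells against 465 in Eed iKO-D) and cluster 4 (Krt15 and Ptn, 1386 against 84). Cluster 3 held 94.5% of the Mmp10 UMIs and 77.5% of the Mmp13 UMIs of the Eed iKO-D class.

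Within cluster 3, Mmp10 was at 213 CPM in Eed iKO-D and 148 CPM in Ctrl-D, with an interval of the ratio of 1.32 to 1.58. Over the 17038 genes measured in this cluster, 41.8% were higher and 14% lower in Eed iKO-D. The median log2 ratio was 0.40 over these genes and -0.31 over the members, and that of Mmp10 was 0.53, near the median of all genes. Mmp13 was at 145 CPM in Eed iKO-D and 220 CPM in Ctrl-D, and Mmp3 at 60.6 and 83.2 CPM. The ratio of Mmp10 was 1.44 here, against 8.66 over the class, and Mmp13 was lower in Eed iKO-D, with 70.8% of its Ctrl-D UMIs in 5 cells. Mmp9 was at 11.4 CPM in Eed iKO-D and 267 CPM in Ctrl-D, with 58.7% of the Ctrl-D UMIs in 5 cells. Timp3 was at 8.19 and 16.5 CPM and Timp1 at 16.5 and 39.2 CPM in Eed iKO-D and Ctrl-D.

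In clusters 2 and 4 the MMPs were mostly higher in Eed iKO-D, with 6 of 7 measured MMPs in cluster 2 and 5 of 5 in cluster 4 at least 1.5 times higher, against 41.2% and 34.1% of all genes. No member was lower in either, where 11.3% and 18.5% of all genes were. The median log2 ratio over all genes was 0.42 in cluster 2 and 0.26 in cluster 4, and over the measured members 1.13 and 1.66. Mmp3 was at 111 CPM in Eed iKO-D and 18.3 CPM in Ctrl-D in cluster 2, and at 16.4 and 1.48 CPM in cluster 4. Mmp13 was at 144 CPM in Eed iKO-D and 41.1 CPM in Ctrl-D in cluster 2, and at 24.7 and 1.83 CPM in cluster 4. The values in cluster 4 of Eed iKO-D come from 84 cells and few UMIs, 12 for Mmp10, 26 for Mmp3 and 39 for Mmp13. Fibroblast genes stood in the whole epithelial-like class at 0.644% of their fibroblast-like level in Eed iKO-D and 0.0353% in Ctrl-D. Epithelial-like cluster 3 of Eed iKO-D had Mmp10 at 213 CPM and Mmp13 at 145 CPM, against 7.58 and 24.7 CPM in cluster 4. The part of RNA from fibroblasts or from other epithelial-like cells in the result was not tested.

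Cluster 10, led by Sprr1b and Krt6b, genes of the cornified envelope and of activated keratinocytes, went the other way for 4 members, with 2 higher, against 12.8% of genes lower and 46.5% higher. The median log2 ratio in cluster 10 was 0.50 over all genes and -0.48 over the measured members. Mmp10 was at 23.4 CPM in Eed iKO-D and 51.7 CPM in Ctrl-D, and Mmp13 at 58.3 and 165 CPM. In Ctrl-D, 5 cells held 87.8% of the Mmp10 and 91.6% of the Mmp13 UMIs of this cluster. Timp3 was highest among the epithelial-like clusters in cluster 4 in both libraries, at 269 CPM in Eed iKO-D and 315 CPM in Ctrl-D, and, among those with at least 20 cells, lowest in cluster 10, at 4.10 and 6.17 CPM. Over the 4 epithelial-like clusters with 50 cells in each library, the log2 ratio of Timp3 lay between -1.02 and 0.45, with a median of -0.41 against -2.36 for the class.

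**Figure D3:**
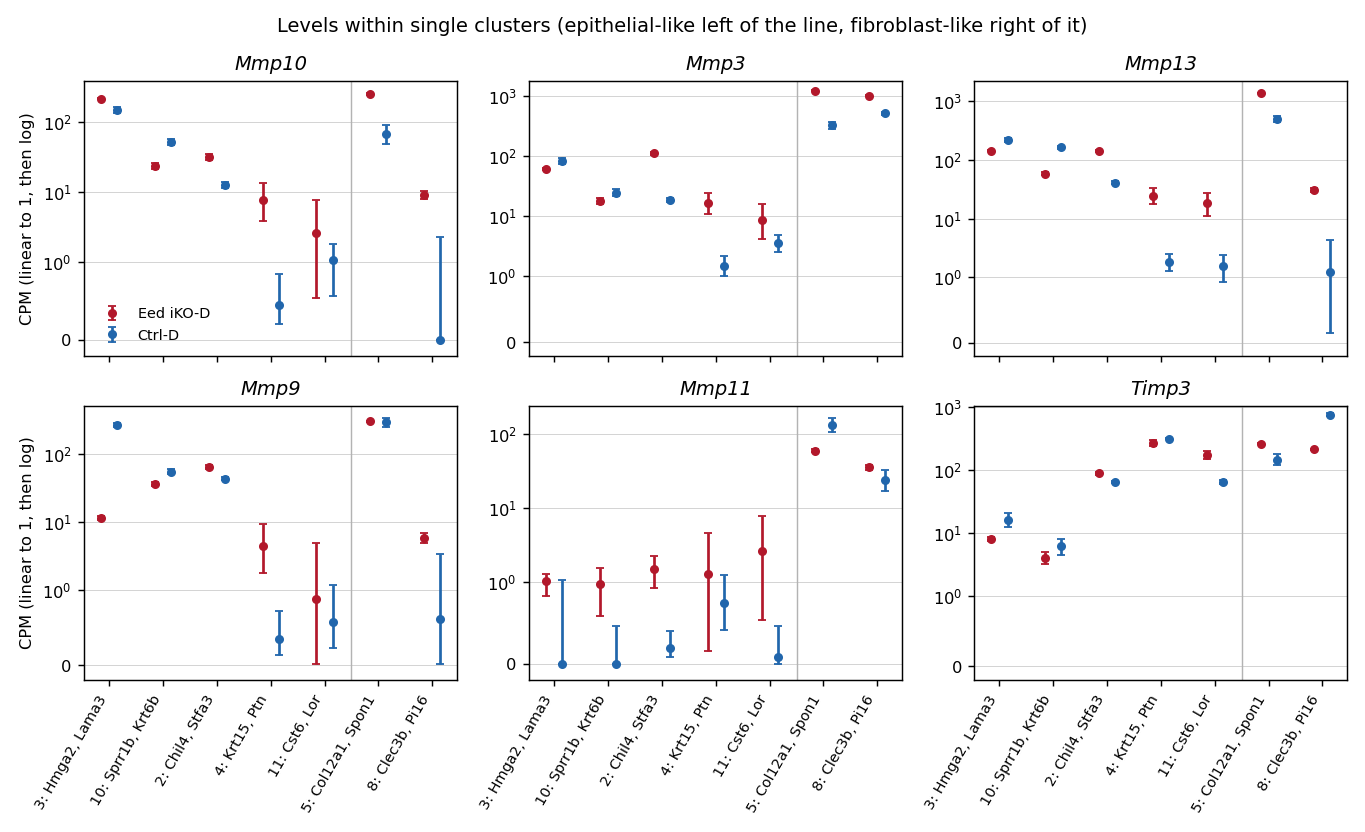
CPM of 6 members in 5 epithelial-like clusters (left of each grey line) and both fibroblast-like clusters (right of it), named by 2 leading genes, with Eed iKO-D in red and Ctrl-D in blue; bars are exact Poisson 95% intervals and the axis is linear up to 1 CPM and logarithmic above. Mmp10, Mmp13 and Mmp9 fall from cluster 5 to cluster 8 in both libraries, Mmp9 in cluster 3 is at 11.4 CPM in Eed iKO-D and 267 CPM in Ctrl-D, and Timp3 peaks in cluster 4 among the epithelial-like clusters.

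Among fibroblast-like cells, detection of Mmp10 went with detection of Mmp13, Mmp9 and Mmp11. Cells of Eed iKO-D cluster 5 with at least 10000 UMIs were thinned to 10000 UMIs each, which left 1189 cells, 338 of them with a UMI of Mmp10. Mmp13 was found in 68.1% of cells with Mmp10 and 30.0% of cells without, Mmp9 in 68.3% and 28.2%, and Mmp11 in 44.4% and 20.2%. Mmp3 was found in 71.3% and 56.8%. Timp3 went the opposite way, found in 24.3% of cells with Mmp10 and 47.0% of cells without. Mmp2, Mmp14, Timp1 and Timp2 differed by at most a few points. These cells had less collagen RNA, with Col3a1 at 6879 CPM in cells with Mmp10 and 13108 CPM in cells without. Krt14, an epithelial gene, was at 1413 CPM in cells with Mmp10 and 864 CPM in cells without, and the part of epithelial RNA in the co-detection was not tested. Sorting the same cells by Mmp9 in place of Mmp10 gave Mmp13 in 61.8% and 27.0% of cells, with Krt14 at 906 and 1060 CPM. Sorted by Mmp13, Krt14 was at 1182 CPM in cells with it and 901 CPM in cells without.

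In Eed iKO-D cluster 3, thinned in the same way, 489 of 1333 cells had a UMI of Mmp10. Mmp13 was found in 53.6% of these and 16.4% of the others, and Mmp3 in 35.2% and 12.8%. Mmp9 was found in 7.36% and 5.21%. In Ctrl-D cluster 3, with 38 of 100 cells, Mmp13 was found in 42.1% of cells with Mmp10 and 17.7% of cells without, and Mmp9 in 47.4% and 22.6%. Col1a1 differed little between Eed iKO-D cluster 3 cells with and without Mmp10, at 75.1 and 70.5 CPM. Cells of 1 library are not replicates, so no test was made of these shares.

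**Figure D4:**
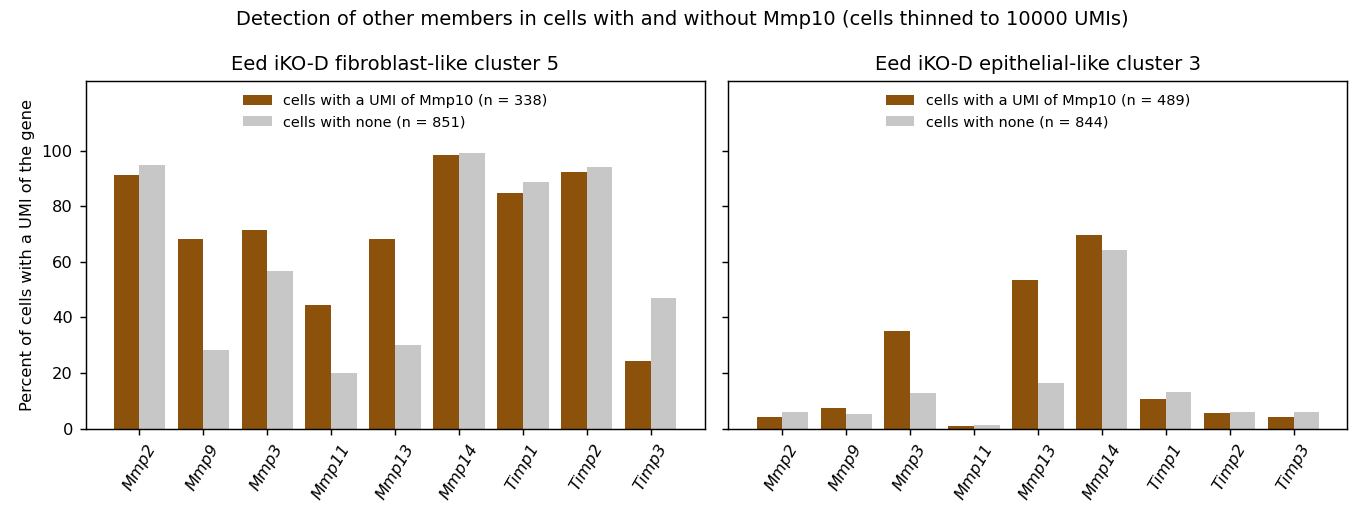
Percent of Eed iKO-D cells with a UMI of each other member, in cells with a UMI of Mmp10 (brown) and cells with none (grey), for fibroblast-like cluster 5 (left) and epithelial-like cluster 3 (right), each cell thinned to 10000 UMIs. In cluster 5 Mmp9, Mmp11 and Mmp13 stand above and Timp3 below in cells with Mmp10, and in cluster 3 Mmp3 and Mmp13 stand above.

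Among immune cells, Mmp9 was the member of neutrophil-like cells, in which the enzyme is known to be stored in granules. It was at 260 CPM in 1136 Eed iKO-D cells and 394 CPM in 138 Ctrl-D cells, a ratio of 0.660 (0.525 to 0.839). The log2 ratio of -0.61 was -0.03 with no doublets removed, -0.28 with each cell gated by its own markers and -0.43 after scaling by the median of ratios, so it did not reach 1.5-fold in these 3 alternatives. The other MMPs of Eed iKO-D neutrophil-like cells, such as Mmp3 at 62.8 CPM against 0 UMIs in Ctrl-D, have free RNA beside them. Fibroblast genes were there at a median of 5.24% of their fibroblast-like level and epithelial genes at 23.2% of their epithelial-like level. Mmp3 was at 5.40% of its fibroblast-like level, Mmp2 at 4.12%, Mmp14 at 9.70%, Mmp13 at 15.7% and Mmp10 at 28.3%. Mmp2 and Mmp3 were thus at or near the background of fibroblast genes. Mmp10, Mmp13 and Mmp14 were above it, with 59.0% of Mmp13 and 50.3% of Mmp10 UMIs in 5 cells. Epithelial-like cells of Eed iKO-D also carried these genes, at 141, 117 and 114 CPM, so the share of fibroblast genes alone does not give their background. The median neutrophil-like cell had 4908 UMIs in Eed iKO-D and 1273 UMIs in Ctrl-D, where the fibroblast genes were at 0.0868%. In this class 6 members were higher and 2 lower in Eed iKO-D, against 34.7% and 26.7% of 10961 genes, and the part of free RNA in these counts was not tested.

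Macrophage or monocyte-like cells carried Mmp14, Timp2, Mmp13 and Mmp9. Mmp14 was at 361 CPM in 1071 Eed iKO-D cells and 410 CPM in 62 Ctrl-D cells, within 1.5-fold. Timp2 was at 341 CPM in Eed iKO-D and 182 CPM in Ctrl-D, 1.87-fold higher (1.47 to 2.41). Mmp13 was at 180 CPM in Eed iKO-D and 904 CPM in Ctrl-D, but 84.3% of the Ctrl-D UMIs lay in 5 cells and the log2 ratio of -2.33 was -0.30 with no doublets removed. Counted with members at 0 UMIs at their floor, 5 members were higher in Eed iKO-D, against 30.2% of 13080 genes, and 1 was lower, against 22.7%. The 5 were Mmp2, Mmp9, Mmp3, Timp1 and Timp2. In Ctrl-D, Mmp2 had 2 UMIs and Timp1 had 6, and their ratio intervals span 1 (0.926 to 28.0 and 0.762 to 4.59). The ratio of Timp1 was within 1.5-fold in 3 of 11 alternatives. Fibroblast genes were in this class at 1.60% of their fibroblast-like level in Eed iKO-D and 0.0381% in Ctrl-D. In Eed iKO-D, Mmp3 was at 1.42% and Mmp2 at 2.004% of their fibroblast-like level, near those genes, and the part of fibroblast RNA in the count was not tested. Mmp9 was at 188 CPM in Eed iKO-D and 26.8 CPM in Ctrl-D, the second value from 10 UMIs, and its direction changed between alternatives.

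Mmp9 in this class was concentrated in cells with osteoclast genes, which resorbing phagocytes share. The 112 Eed iKO-D cells with a UMI of at least 3 of the 5 genes Acp5, Ctsk, Atp6v0d2, Ocstamp and Dcstamp had Mmp9 at 1015 CPM, and the other 959 cells had 31.7 CPM. These 112 cells held 85.8% of the Mmp9 UMIs of the class, and 5 of them held 77.3% of the UMIs of the 112. Mmp9 was found in 15.2% of the 112 cells and 12.0% of the others, so the gap came from a few cells with many UMIs. Mmp13 was at 431 CPM in the 112 cells and 132 CPM in the others. In Ctrl-D, 7 cells met the gate and held 2 Mmp9 UMIs.

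The other classes carried fewer UMIs. In T or NK cell-like cells 6 of 9 measured members were higher and 2 lower in Eed iKO-D, against 18.4% and 20.5% of all genes. Fibroblast genes were at 2.64% of their fibroblast-like level in Eed iKO-D and 0.302% in Ctrl-D, and epithelial genes at 16.5% and 13.1% of their epithelial-like level. Of the 6, Mmp2, Mmp3, Mmp13, Mmp14 and Timp1 were at 3.49%, 2.35%, 4.77%, 4.35% and 1.92% of their fibroblast-like level in Eed iKO-D. The ratio intervals of Timp1 (0.814 to 4.31) and Timp3 (0.847 to 5.05) span 1. In dendritic cell-like cells 3 of 7 were higher and 1 lower, against 27.2% and 22.5%. Fibroblast genes were at 2.22% in Eed iKO-D and 0.207% in Ctrl-D dendritic cell-like cells, and Mmp2, one of the 3, was at 2.41% of its fibroblast-like level in Eed iKO-D. In Schwann-like cells 0 of 8 were higher and 5 lower, against 25.1% and 31.5% of 7403 genes. Fibroblast genes were there at 9.01% of their fibroblast-like level in Eed iKO-D and 29.2% in Ctrl-D, and all Mmp3 and Mmp13 UMIs of Ctrl-D Schwann-like cells lay in 5 cells or fewer. Col1a1 was at 1409 CPM in Eed iKO-D and 6738 CPM in Ctrl-D Schwann-like cells, and gating each cell by its own markers named 3 and 1 cells Schwann-like, so the name of this class is uncertain. The part of fibroblast or epithelial RNA in the counts of these classes was not tested.

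Outside the 10 members, the genes that act with MMPs were counted from lists of activators, partners, relatives, inducers and AP-1 genes. These counts stand beside 38.4% of all genes higher and 16.9% lower in epithelial-like cells, and 28.3% higher and 22.8% lower in fibroblast-like cells. Of the other MMP and inhibitor genes, epithelial-like cells had 10 of 13 measured genes higher in Eed iKO-D and 1 lower, and 9 of 12 were higher and 1 lower in fibroblast-like cells, or 7 with genes at 0 UMIs set to their floor. The lower genes were Mmp17 in epithelial-like cells and Reck, a membrane-anchored MMP inhibitor, in fibroblast-like cells. Of the same list, macrophage or monocyte-like cells had 1 of 7 higher and 4 lower, against 30.2% and 22.7% of all genes. Neutrophil-like cells had 5 of 7 higher, or 1 at the floor, and 1 lower, against 34.7% and 26.7%. T or NK cell-like cells had 2 of 3 higher and 0 lower, against 18.4% and 20.5%. Dendritic cell-like cells had 0 of 2 higher and 2 lower, against 27.2% and 22.5%. Schwann-like cells had 1 of 4 higher and 1 lower, against 25.1% and 31.5%. Mmp12, the elastase of macrophages, was at 425 CPM in Eed iKO-D and 974 CPM in Ctrl-D macrophage or monocyte-like cells. Mmp8, the neutrophil collagenase, was at 170 CPM in Eed iKO-D and 45.4 CPM in Ctrl-D neutrophil-like cells, where it had 9 UMIs.

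Of the activators, binding partners and clearance receptors, 7 of 12 were higher in epithelial-like cells, against 38.4% of all genes, and 5 of 12 in fibroblast-like cells, against 28.3%. In each class 1 was lower, the convertase Pcsk6, against 16.9% and 22.8% of all genes. Cd44, a hyaluronan receptor that can hold Mmp9 at the cell surface, was at 1390 CPM in Eed iKO-D and 417 CPM in Ctrl-D epithelial-like cells, and at 969 and 313 CPM in fibroblast-like cells. Furin, the convertase that activates pro-Mmp14 and pro-Mmp11, was at 89.6 CPM in Eed iKO-D and 45.3 CPM in Ctrl-D epithelial-like cells. Cd63, a tetraspanin that binds Timp1, was at 233 CPM in Eed iKO-D and 227 CPM in Ctrl-D epithelial-like cells. Of the related ADAM and ADAMTS metalloproteinases, 8 of 13 were higher and 2 (Adamts5 and Adamts9) lower in epithelial-like cells, against the same 38.4% and 16.9%. In fibroblast-like cells 7 of 13 were higher and 0 lower, against 28.3% and 22.8%. Adamts9 and Adamts1 were highest in blood endothelial-like cells of Eed iKO-D, at 899.6 and 509 CPM. Adamts5, an aggrecanase, was at 581 CPM in Eed iKO-D and 868 CPM in Ctrl-D fibroblast-like cells, within 1.5-fold.

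Cytokines and growth factors known to induce MMPs were mostly higher in epithelial-like and fibroblast-like cells, but not in the larger immune classes. In epithelial-like cells 7 of 9 were higher in Eed iKO-D and 1, Il6, was lower, against 38.4% and 16.9% of all genes, with a list median of 1.39 on the log2 scale. In fibroblast-like cells 8 of 9 were higher, against 28.3%, and Il6 was not. Macrophage or monocyte-like cells had 2 of 9 higher, against 30.2% of all genes, and neutrophil-like cells 3 of 9, against 34.7%. T or NK cell-like cells had 2 of 8 higher and 3 lower, against 18.4% and 20.5%. Areg, a ligand of the EGF receptor, was at 957 CPM in Eed iKO-D and 303 CPM in Ctrl-D epithelial-like cells, and at 54.5 and 3.93 CPM in fibroblast-like cells. Epithelial genes stood in fibroblast-like cells at 6.37% of their epithelial-like level in Eed iKO-D and 1.71% in Ctrl-D, near the share that Areg reached there, and the part of epithelial RNA in the fibroblast-like value was not tested. Il1b was highest in neutrophil-like cells, at 8422 CPM in Eed iKO-D and 8658 CPM in Ctrl-D. In fibroblast-like cells it was at 83.4 CPM in Eed iKO-D and 0 UMIs in Ctrl-D, at least 63.6-fold higher, in a library where neutrophil genes were at 0.428% of their neutrophil-like level in that class, and the part of neutrophil RNA was not tested. Of the 7 AP-1 genes, Fosb and Fosl1 were higher and none was lower in epithelial-like cells, and in fibroblast-like cells Fosl1 was higher and Jund lower. Jun was at 1973 CPM in Eed iKO-D and 1532 CPM in Ctrl-D fibroblast-like cells, and Junb at 1040 and 1359 CPM.

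Over 19 points, each 1 class in 1 library with at least 50 cells, the 3 genes most like each member were ranked by Pearson's r of log2(CPM + 5) among 7918 genes. The points share libraries and depth, so r is a description. For Mmp2 they were Lrrc17, Loxl1 and Medag, with r of 0.973, 0.971 and 0.968. For Mmp10 they were Pi15, Tnc and Bmpr1b, with r of 0.876, 0.845 and 0.839. For Mmp9 they were Hp, Nfkbiz and Nfkbia, with r of 0.847, 0.816 and 0.806. Timp1 was the member whose nearest gene was another member, Mmp2, with r of 0.945. Mmp13 had no close match, its first being Ptges with r of 0.791. For Mmp3 the nearest was Mrc2, a collagen receptor, with r of 0.928, for Mmp11 Cpxm2 with 0.956, for Mmp14 Plod3, a collagen lysyl hydroxylase, with 0.949, for Timp2 Cd302 with 0.912 and for Timp3 Cachd1 with 0.922.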

How the data were processed

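For each library the authors deposited a matrix of raw UMI counts. The kit was 10x Genomics Chromium 3' v2, per the labels' protocols. The Cell Ranger version differs between sources: 2.1.0 per the labels' protocols, 8.0 per the submitters' processing notes (with build mm10) and 7.1.0 per the file headers. No introns or strand setting was given in the sources used here.

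Cells with at least 500 genes and at most 15% mitochondrial UMIs were kept. Scrublet (expected rate 0.08) was run per library. Counts scaled to 10000 per cell were log-transformed, and 2000 variable genes without any Mmp or Timp gene, reduced to 30 principal components and a graph of 15 neighbours, gave 25 Leiden clusters at resolution 1.0 (scanpy 1.11.5), with no batch correction. A cluster was named from its marker list at a mean score of at least 0.4, a lead of 0.3 over a rival lineage and 3 raised markers, and was left unnamed where Gm42418 passed 10% of UMIs and fewer than 3 own markers led it; these limits were set after the data were seen. The members, marker and gene lists were chosen with earlier results of these data known.

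UMIs were summed per class and library and given as CPM. No test was made, as groups had 1 library each. Levels carry exact Poisson, shares exact Clopper-Pearson and ratios exact conditional binomial intervals at 95%. UMIs of 1 cell are not independent, so real uncertainty is larger. Comparison of a class or cluster needed 50 cells from both libraries. A gene counted as higher or lower at a 1.5-fold ratio where the libraries summed to 20 UMIs or more; 0.5 UMI was added for log2 ratios, and a library at 0 was set to a floor of 3 UMIs over the class. All 10 members are named. From the wider lists the 3 genes with the highest CPM in any class were named. The cytokine and AP-1 genes named beside them were chosen after their values were seen. So were Mmp17, Reck and Pcsk6, named as lower genes, and genes such as Col3a1 and Krt14 in the co-detection. Gene positions come from GENCODE M21 and promoters from RefSeq, both GRCm38. Calculations were tested on simulated counts. Alternatives covered cell filters, doublets, resolution, gating, scaling and weighting.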

Additional observations from a re-analysis of the deposited data

Results flagged for a closer look

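Mmp9 went opposite ways in the 2 largest classes: its log2 ratio of Eed iKO-D over Ctrl-D was -0.68 in epithelial-like cells and 1.23 in fibroblast-like cells. With 1 library per group the difference was not tested. The epithelial-like value was 0.093 with cells weighted equally, and in fibroblast-like cluster 5, which held nearly all of the class's Mmp9, the level was 298 CPM in Eed iKO-D and 289 CPM in Ctrl-D.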

How the results depend on the processing

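No paired analysis was possible because each group has 1 library. In epithelial-like cells, 5 members were higher and 3 lower. Scaling by the median of ratios gave 3 higher and 5 lower. Weighting cells equally gave 3 higher. Gating each cell by its own markers, taking the median within shared clusters, and adding the unnamed clusters to their leading lineage gave 1 lower in each case; the last 2 were chosen after seeing the data, as were the alternatives without cluster 13 and with cluster 8 alone. In fibroblast-like cells the counts of 4 higher and 2 lower, and the 8 members highest in fibroblast-like cells, stayed within 1.5 times of these values in every alternative run; the last count ranged up to 10 with at least 1000 genes per cell.

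Of 38 ratios past 1.5-fold in 5 classes, 31 kept their sign in every alternative run and 22 also stayed past 1.5-fold. These counts use log2 ratios with 0.5 UMI added, not the floor of 3 UMIs. At that floor, Mmp10 and Timp3 of macrophage or monocyte-like cells, both at 0 UMIs in Ctrl-D, were not past 1.5-fold (1.18 and 0.527). The reversals were log2 ratios of Mmp9 in epithelial-like cells (0.093) and T or NK cell-like cells (0.38) with cells weighted equally, Timp2 in epithelial-like cells (0.43, median within clusters), and Mmp9 in macrophage or monocyte-like cells (-0.035 at resolution 1.5 and -0.036 with no doublets removed). In macrophage or monocyte-like cells Timp3 was at -1.12 (resolution 0.5), -2.03 (at most 10% mitochondrial UMIs) and -2.01 (no doublets removed). In T or NK cell-like cells Timp3 was at -0.079 (Mmp and Timp genes left among the variable genes), -0.49 (at most 10% mitochondrial UMIs) and -1.81 (no doublets removed), and Timp1 at -1.01 (no doublets removed). These rest on few UMIs in Ctrl-D, and the cause was not tested.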

Other observations

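Several members were also found outside fibroblast-like, epithelial-like and phagocytic cells. Pericyte or smooth muscle-like cells had Mmp14 at 551 CPM in Eed iKO-D (439 cells) and 320 CPM in Ctrl-D (36 cells), and Timp1 at 219 and 273 CPM. Fibroblast genes were there at 16.8% of their fibroblast-like level in Eed iKO-D and 17.6% in Ctrl-D. Blood endothelial-like cells of Eed iKO-D (502 cells) had Timp3 at 308 CPM and Mmp14 at 367 CPM. Melanocyte-like cells of Ctrl-D (248 cells) had Timp2 at 229 CPM and Mmp16, a membrane-bound MMP, at 258 CPM, while Mmp3 and Mmp10 were at 0 UMIs there. Hair matrix or sheath-like cells of Ctrl-D (512 cells) had Timp3 at 205 CPM and Mmp14 at 42.3 CPM, with each other MMP member at 1.59 CPM or lower.

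Unnamed cells of Eed iKO-D, left out of the comparisons, carried members at levels between those of the named classes. In the 7561 cells of cluster 0, with 39.6% of UMIs from Gm42418, Mmp13 was at 150 CPM, Mmp14 at 127 CPM, Mmp3 at 92.7 CPM and Mmp10 at 56.5 CPM. In the 604 cells of cluster 15, Mmp10 was at 132 CPM, Mmp13 at 132 CPM and Mmp3 at 44.1 CPM.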
